A study of Mus musculus with 53 samples.

Results

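Sciatic nerve gene expression was compared between mice returned from a high-fat diet to control diet and mice that had control diet throughout, to measure what still differed once the prediabetic diet had been withdrawn. The comparison was chosen by group label: the 7 samples labelled HFD-DR24wk were set against the 8 labelled SD24wk, which together are 15 of the 53 samples in the series. The series holds RNA sequencing of whole sciatic nerve from male C57BL/6J mice in 8 groups, made to follow nerve lipids and transcripts in diet-induced models of prediabetes and type 2 diabetes. Values were log2 expression levels per gene made by the authors, and the files gave no read counts, so the exact depth of each sample was unknown.

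SD24wk mice (n = 8) were kept on control diet to 24 weeks of age. HFD24wk mice (n = 7) had a diet with 60% of its energy from fat from 5 weeks of age to 24 weeks. HFD-DR24wk mice (n = 7) had the same high-fat diet from 5 weeks, were moved to control diet at 16 weeks, and stayed on it for 8 weeks, so that all 3 groups were sampled at the same age. None of these groups received streptozotocin. The groups are written below as SD, HFD and HFD-DR. The labels do not state that the samples of a group came from separate animals, so each p measures the spread between samples.

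The sciatic nerve carries motor and sensory axons whose cell bodies lie outside it, so most of its RNA comes from Schwann cells, which wrap axons in myelin, and from fibroblasts, endothelial cells, macrophages, mast cells and the fat cells of the surrounding epineurium. In obesity, macrophages in fatty tissue take up lipid and change their transcripts, and nerve function is known to decline in mice fed a high-fat diet. Mast cells lie around nerve blood vessels, hold granules of proteases and histamine, and carry the IgE receptor.

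The tissue label fitted the markers of myelinating nerve. Mbp, the gene for myelin basic protein, ranged from 19.63 to 20.22 in the SD samples (median 19.98) and from 19.61 to 20.06 in the HFD-DR samples (median 19.78). Sox10, the transcription factor that defines the Schwann cell lineage, ranged from 14.26 to 15.28 in SD and from 14.53 to 15.08 in HFD-DR. Transcripts of tissue next to the nerve were also present and varied widely. The muscle myosin Myh4 ran from 5.87 (SD replicate 6) to 19.97 (SD replicate 5), and the fat cell hormone gene Adipoq from 10.29 to 13.80 in HFD-DR. Correlations between pairs of the 15 samples across genes ran from 0.956 to 0.994.

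After reversal, no gene differed from SD past the test across all genes. Of 18151 genes whose mean over the 15 samples passed the filter on low values, 0 (0%) had an adjusted p under 0.05 by limma, and the smallest adjusted p was 0.583, for the peptide hormone gene Apln. At an unadjusted p under 0.05, 934 genes passed, 674 higher in HFD-DR (3.71% of those tested) and 260 lower (1.43%). This threshold passes about 1 in 20 genes where none differs, so the total is not read as a count of genes that differ. The median difference over all genes was -0.01, the median size of a difference was 0.09, and 42 genes (0.231%) differed by more than 1 log2 unit in either direction. The 95% confidence interval of the difference lay wholly between -1 and 1 for 16565 genes (91.3%), so for most genes a doubling or a fall of that size was outside the interval. The count at the unadjusted threshold depended on single nerves: it was 517 without HFD-DR replicate 3 and 1499 without HFD-DR replicate 5. With no filter on low values it was 2663 (2348 higher, 315 lower). With the mean level of TEC genes, an annotation class described below, as a term of the fit it was 274 (127 higher, 147 lower). The lower genes numbered 137 with each sample centred on its median, and 537 with adipocyte and muscle marker levels as terms.

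The same control nerves set against mice still on the high-fat diet gave calls with the same number of diet-group samples. HFD against SD gave 22 genes past an adjusted p of 0.05 (0.121% of 18195 tested), 20 higher and 2 lower, and HFD-DR against HFD gave 2 (0.0108% of 18479), both lower after reversal. Those 2 genes were Tph2, which encodes the tryptophan hydroxylase of serotonin neurons, and Ubd, a ubiquitin-like protein induced in inflammation. These comparisons share samples, so their values are given side by side and are not independent. The count of 22 was 13 without HFD replicate 1, HFD replicate 4 or SD replicate 7, 14 without HFD replicate 7 or SD replicate 8, and 44 without HFD replicate 2 or 3. It was 13 with runs of library numbers as a block, 11 of them among the 22, and 68 with all 8 groups in 1 fit. The count of 2 was 0 without HFD-DR replicate 2, 4, 5 or 7 or HFD replicate 1, 4, 6 or 7, 1 without HFD-DR replicate 1, 4 without replicate 3 of either group and 10 without HFD replicate 2. The 1 gene called without HFD-DR replicate 1 was Mmp12, so neither Tph2 nor Ubd passed there. The count of 2 was also 0 with runs of library numbers as a block and with no filter on low values, and 18 with all 8 groups in 1 fit.

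The 22 genes that differed in HFD nerves lay closer to SD in HFD-DR nerves, with differences from -0.83 to 1.15, and none of the 18 that were tested there passed the test. They include macrophage genes (Mmp12, a secreted elastase, and Itgad, the alpha chain of a leukocyte integrin), the choline transporter Slc5a7, the acute phase gene Saa3, the gastric lipase Lipf and the iron transport receptor Tfr2. Of the 22, 18 passed the filter for HFD-DR against SD, and these had a median difference from SD of 2.61 in HFD and 0.41 in HFD-DR. The other 4, Gsg1l, Plch2, Tm4sf19 and Vsig8, lay below the filter in the 15 samples and were tested only through their HFD values. Of the 18, 3 reached an unadjusted p under 0.05 in HFD-DR, Plppr4 and Slc5a7 higher and Acsm3 lower, where all genes tested gave 3.71% higher and 1.43% lower. By limma 0 reached an adjusted p under 0.05, the smallest being 0.925. The 22 were chosen for their difference between HFD and the same SD samples, so their HFD values are a description, and their differences between HFD-DR and SD, with the p-values given for them, are also affected by that choice.

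**Figure D1:**
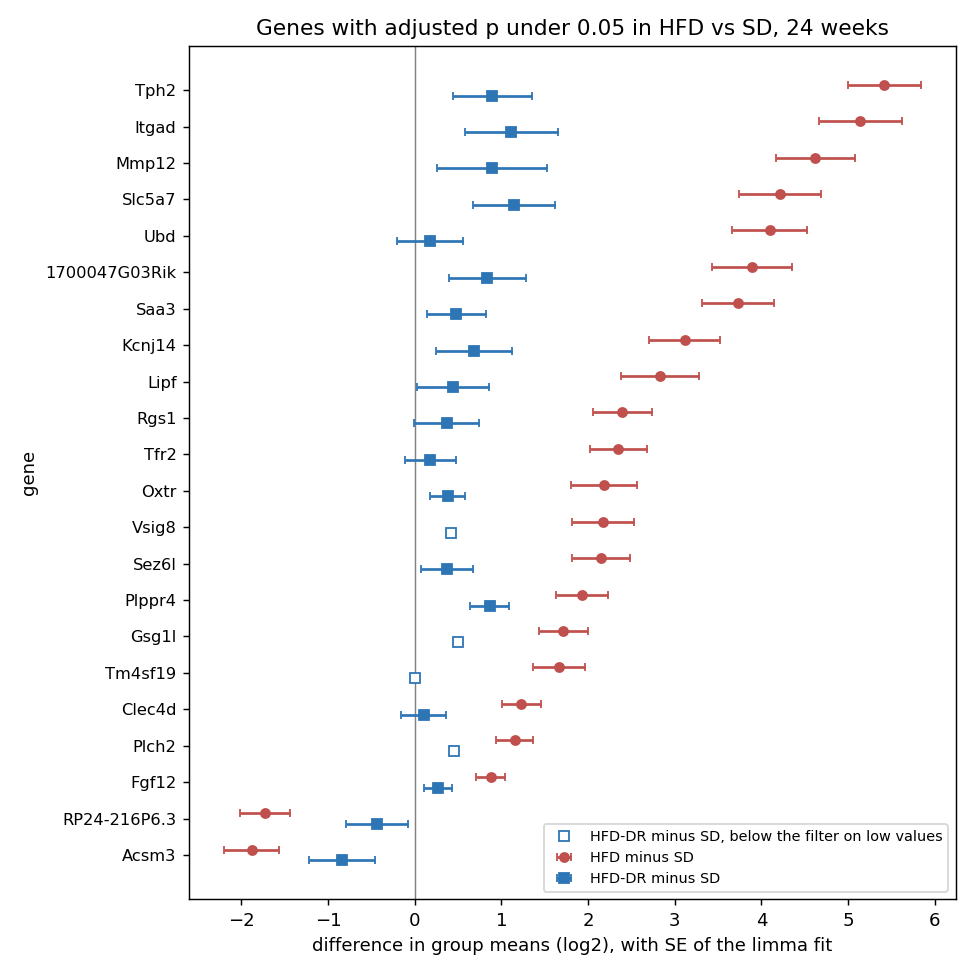
Differences (log2) of the 22 genes past the test in HFD against SD at 24 weeks, with HFD minus SD and HFD-DR minus SD drawn for each gene, bars showing the standard error of the limma fit and open squares the 4 genes below the filter on low values. The HFD-DR differences run from -0.83 to 1.15, and both comparisons use the same 8 SD samples.

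The plot of the differences of these 22 genes shows the distance between both diets gene by gene. Tph2 ranged from 3.16 to 4.45 in SD (median 3.80), from 3.45 to 6.78 in HFD-DR (median 4.17) and from 7.67 to 10.59 in HFD. HFD-DR replicates 3 (6.78) and 6 (6.36) lay above every SD sample and the other 5 lay within the SD range, so the groups overlapped. The mean difference from SD was 0.89 (standard error 0.454, 2-sided exact permutation p = 0.0912), against 5.42 in HFD.

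Itgad showed the same kind of spread. It ranged from 2.69 to 4.37 in SD (median 3.41) and from 3.20 to 7.88 in HFD-DR (median 4.07), a mean difference of 1.11 (exact permutation p = 0.0412, adjusted p = 0.925 by limma; 6 of 7 above the SD median). HFD-DR replicate 3 stood highest at 7.88, replicate 1 followed at 4.99, and 5 of the 7 lay inside the SD range. In HFD nerves Itgad ran from 6.76 to 10.45.

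Slc5a7, which carries choline into cells, ranged from 3.65 to 5.61 in SD (median 4.86) and from 4.66 to 7.51 in HFD-DR (median 5.19). Replicates 1 (7.06), 3 (7.51) and 6 (6.72) of HFD-DR lay above every SD sample and the other 4 overlapped with SD. The mean difference was 1.15 (95% interval 0.14 to 2.16, exact permutation p = 0.0477, adjusted p = 0.925 by limma), against 4.21 in HFD.

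Plppr4, a membrane protein related to lipid phosphatases and known from neurons, had the smallest p of the 18 genes tested. It ranged from 3.82 to 4.78 in SD (median 4.25) and from 4.35 to 5.63 in HFD-DR (median 5.25), and 5 of the 7 HFD-DR samples lay above every SD sample. The difference was 0.86 (95% interval 0.38 to 1.34, exact permutation p = 0.00404, adjusted p = 0.925 by limma), beside 1.93 in HFD.

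Mmp12 and Acsm3 show the spread in both directions. Mmp12 ranged from 4.17 to 7.42 in SD (median 5.76) and from 4.75 to 9.57 in HFD-DR (median 5.89), with replicates 1 (9.57) and 6 (7.85) above every SD sample and a mean difference of 0.90 (exact permutation p = 0.230). Acsm3, an enzyme that activates medium-chain fatty acids, was lower: it ranged from 6.03 to 8.11 in SD (median 7.03) and from 4.89 to 7.43 in HFD-DR (median 6.43), a difference of -0.83 (exact permutation p = 0.0673). Replicates 2 (5.48) and 3 (4.89) of HFD-DR lay below every SD sample. Ubd, one of the pair of genes that fell between HFD and HFD-DR, differed from SD by 0.18.

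As a mean of the 20 genes higher in HFD, the SD samples ran from 3.77 to 4.55 (median 4.19) and the HFD samples from 5.97 to 8.04 (median 7.11). The HFD-DR samples had a median of 4.27, with replicates 3 (5.64), 1 (5.40) and 6 (5.33) above every SD sample and the other 4 between 3.88 and 4.27. These genes were chosen for being high in the HFD samples, and 4 of them lay below the filter in SD and HFD-DR, so the distance from HFD follows in part from the choice. Lep, the fat cell hormone leptin, was also high in HFD-DR replicates 3 (12.58) and 6 (12.09), above the highest SD sample at 11.56, and not in replicate 1 (9.86). Mean levels over 14 adipocyte markers ran from 9.63 to 12.17 in SD (median 11.40) and from 9.30 to 12.32 in HFD-DR (median 11.36), and their part in the values of these 20 genes was not tested. With the mean levels of adipocyte and muscle markers as terms of the fit, 0 genes passed an adjusted p of 0.05 in HFD-DR against SD and 1221 an unadjusted one.

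A wider view came from genes picked at 16 weeks, in mice that share no sample with the 24-week groups. At 16 weeks, HFD against SD gave 1 gene past an adjusted p of 0.05 (0.00557% of 17966 tested), Nnat, a small membrane protein gene that is expressed from the paternal allele. With runs of library numbers as a block that count was 0, and without HFD replicate 6 of the 16-week mice it was 4. Its HFD-DR minus SD difference at 24 weeks was -0.03. The 50 genes most clearly higher in HFD at 16 weeks differed by a median of 0.04 between HFD-DR and SD, with 28 of 50 higher, and by 0.96 between HFD and SD at 24 weeks. The sign of the 0.04 was not stable: it was -0.02 for 100 genes, -0.06 without HFD-DR replicate 6, -0.01 without HFD-DR replicate 3, -0.02 without SD replicate 4 and 0.20 without HFD-DR replicate 2. The 50 genes lower at 16 weeks had a median of -0.06 in HFD-DR, with 14 of 50 higher, and of -0.17 in HFD at 24 weeks, with 2 of 50 higher. Over all genes tested 47.2% were higher and the median was -0.01.

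Beyond the high-fat diet genes, the named genes with the smallest p among those higher in HFD-DR were mostly noncoding or unannotated transcripts. They were Bcas3os1, Gm37311, Gm28373, Gm15475, Dqx1, Gm37124, Akap5, RP23-4P23.1, 6030400A10Rik and Gm38380, with differences from 0.64 (Akap5) to 1.12 (Gm37311). Among those lower were Apln, the death receptor Fas, the transcription factor Klf2, which responds to blood flow in endothelium, the interferon-induced GTPase Tgtp1, the proteasome subunit Psmd14, Tbrg1, the coding gene 6030408B16Rik, the pseudogene Gm12407 and A630033H20Rik, which the annotation does not hold. None of the 20 passed the test across all genes. Gm15475 had an SD mean of 3.09, below the filter on low values, and was tested through its HFD-DR mean of 3.9. Gm12407 had an HFD-DR mean of 3.08, also below the filter, and was tested through its SD mean of 3.73.

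Bcas3os1 was the only gene of the 18151 whose HFD-DR and SD samples did not overlap (0.00551% of those tested, against 0.253% of 18195, or 46 genes, in HFD against SD). It lies on the minus strand of chromosome 11 at chr11:85702200-85719744 (mm10), antisense within Bcas3. It ranged from 3.45 to 4.37 in SD (median 4.05; 4.02 ± 0.30, mean and standard deviation, n = 8) and from 4.44 to 5.23 in HFD-DR (median 4.89; 4.86 ± 0.26, n = 7). The difference was 0.84 (standard error 0.161, adjusted p = 0.75 by limma), and the exact permutation p of 0.000155 is the smallest that the 6435 assignments of these samples to groups of 7 and 8 can give in a 2-sided test. With 18151 genes and 6435 assignments, chance alone would be expected to separate the groups fully in more than 1 gene. Bcas3os1 was also named for its small p in these same samples. HFD samples were spread from 4.35 to 5.53, a difference of 0.88 from SD. The paper describes libraries that were not strand-specific, and the sample labels name a different library kit. If strand was not kept, reads from Bcas3os1 and from Bcas3 cannot be told apart, nor can those of Gm15475 and Dysf.

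Apln, the gene for apelin, a peptide that acts on blood vessels, had the smallest p of the comparison. It lies at chrX:48025146-48034853 on the minus strand. It ranged from 7.13 to 8.69 in SD (median 7.87; 7.88 ± 0.45, n = 8) and from 6.60 to 7.14 in HFD-DR (median 6.78; 6.85 ± 0.22, n = 7). HFD-DR replicate 4 (7.14) lay just above the lowest SD sample, SD replicate 4 (7.13), and the other 6 lay below every SD sample. The difference was -1.03 (standard error 0.181, exact permutation p = 0.000466, adjusted p = 0.583 by limma). In HFD nerves Apln ran from 6.94 to 7.70, a difference of -0.65 from SD, and HFD-DR replicates 1, 3, 6 and 7 lay below every HFD sample.

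**Figure D2:**
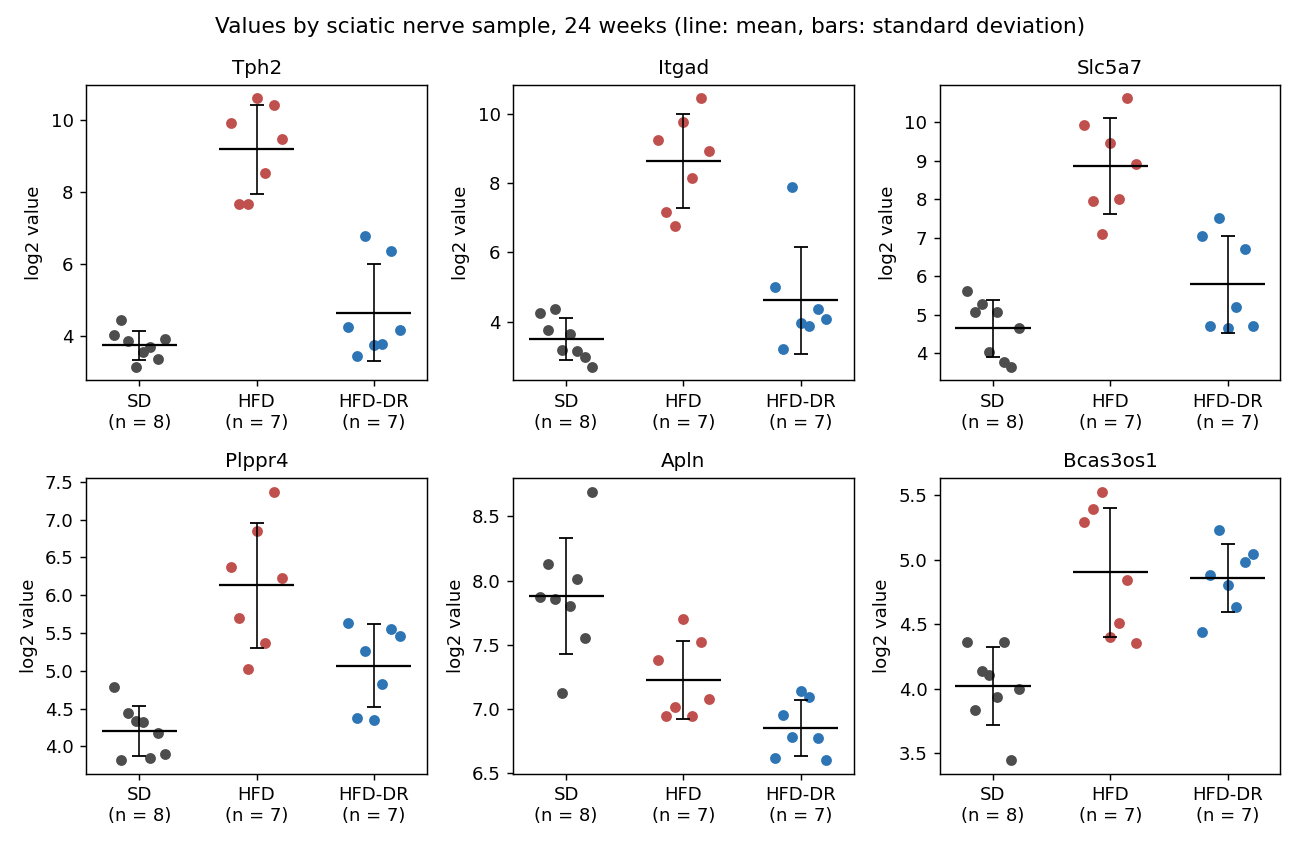
Log2 expression values of Tph2, Itgad, Slc5a7, Plppr4, Apln and Bcas3os1 in each SD, HFD-DR and HFD sample at 24 weeks, with each point a sample and the bars the mean and standard deviation of each group. Bcas3os1 is the gene whose HFD-DR samples (4.44 to 5.23) all lie above the SD samples (3.45 to 4.37).

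The plot of 6 genes by sample sets these patterns beside each other. For Tph2 and Itgad, a few HFD-DR nerves are high and most sit with SD, whereas for Plppr4, Apln and Bcas3os1 most of the group is displaced. Smaller differences of the displaced kind were seen in Fas, which was lower by 0.30 (SD 9.64 to 9.98, median 9.89; HFD-DR 9.35 to 9.70, median 9.56; exact permutation p = 0.000777), and in Klf2, lower by 0.39 (SD 11.61 to 12.20, median 11.95; HFD-DR 11.16 to 11.80, median 11.61; exact permutation p = 0.00544). In both, all 7 HFD-DR samples lay below the SD median and the groups overlapped. Psmd14 differed by -0.21, with 6 of 7 HFD-DR samples below every SD sample (SD from 11.54). Apln, Bcas3os1, Fas, Klf2 and Psmd14 were named for their small p in this comparison, and Plppr4 was singled out among the high-fat diet genes for its p. A displaced group therefore follows in part from that choice, and the exact p-values of these genes are affected by it.

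Mast cell markers formed the gene list that stood lowest in HFD-DR. The list held 10 genes, 0 of which were higher in HFD-DR than in SD, with a median difference of -0.75. In HFD nerves the same 10 genes differed from SD by a median of 0.11, and HFD-DR differed from HFD by a median of -0.86. Mean levels over the list ran from 7.31 to 8.25 in SD (median 7.77), from 6.08 to 7.75 in HFD-DR (median 7.12) and from 7.28 to 8.30 in HFD. Adipocyte markers (0 of 14 higher, median -0.43) and resident macrophage markers (0 of 15 higher, median -0.26) were also lower in HFD-DR. HFD-DR replicate 7, lowest for the mast cell list at 6.08, was also lowest of its group for nerve fibroblast markers (12.49) and highest for myelin genes (15.77). In whole tissue, fewer mast cells and less of these RNAs in each cannot be told apart.

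**Figure D3:**
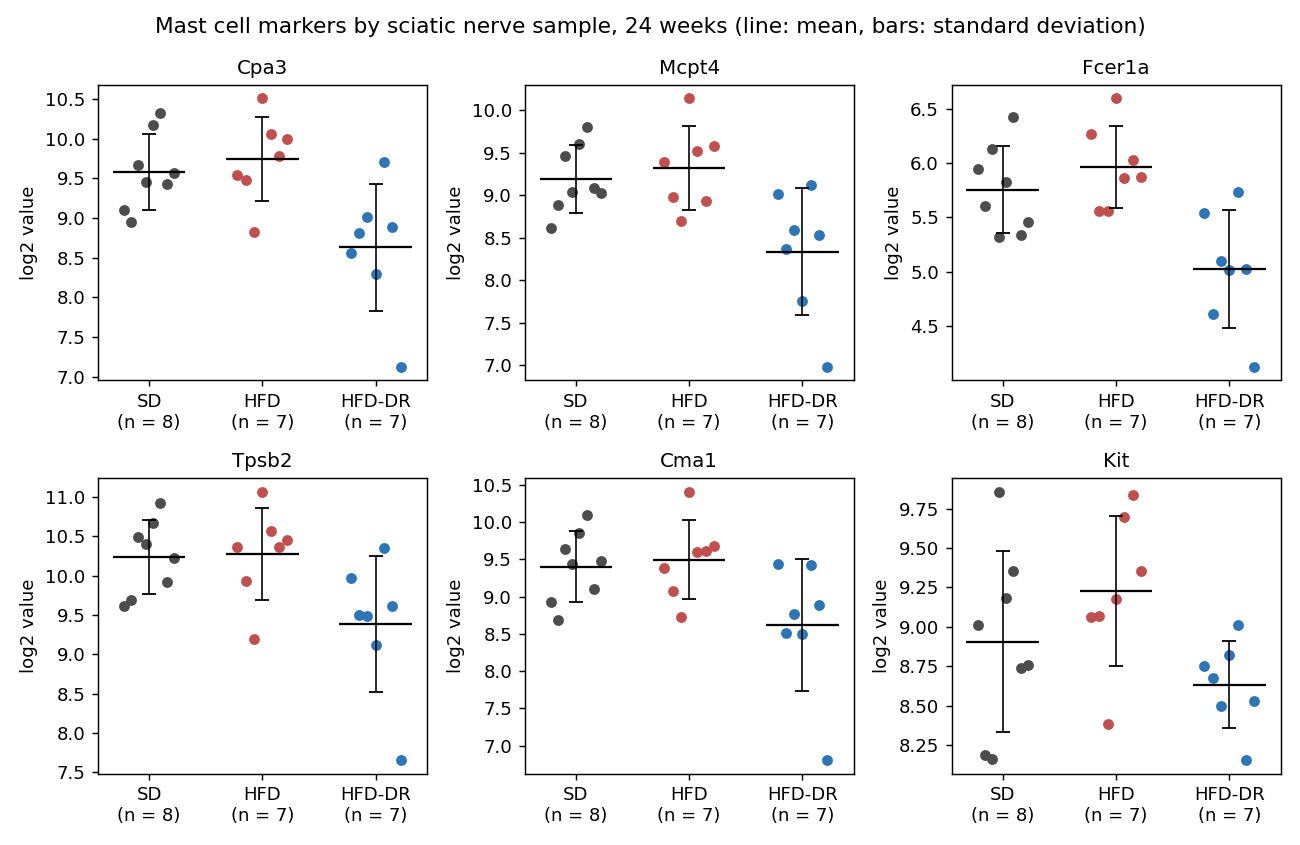
Log2 expression values of the mast cell markers Cpa3, Mcpt4, Fcer1a, Tpsb2, Cma1 and Kit in each SD, HFD-DR and HFD sample at 24 weeks, with each point a sample and the bars the mean and standard deviation of each group. The HFD-DR values of Cpa3 run from 7.12 to 9.71, beside 8.95 to 10.33 in SD, and overlap with them.

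Of the 10 members, 6 reached an unadjusted p under 0.05, all lower, and 0 an adjusted one by limma. Over all genes tested 1.43% were lower at that threshold and 3.71% higher. The count of 6 was 1 when all 8 groups of the series shared a fit, with the median difference still -0.75, and 6 with runs of library numbers as a block, with a median of -0.77. With adipocyte and muscle marker levels as terms of the fit the count was 5, with a median of -0.62. Cpa3, the carboxypeptidase A of mast cell granules, ranged from 8.95 to 10.33 in SD (median 9.51) and from 7.12 to 9.71 in HFD-DR (median 8.81), a difference of -0.95 (standard error 0.302, exact permutation p = 0.00855). HFD-DR replicates 1, 2, 4, 6 and 7 lay below every SD sample, and replicate 7 was lowest. The chymase Mcpt4 ran from 8.62 to 9.81 in SD (median 9.06) and from 6.98 to 9.12 in HFD-DR (median 8.54), with 5 of 7 samples below every SD sample. Its difference was -0.85 (exact permutation p = 0.00777).

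The tryptase Tpsb2 differed by -0.86 (exact permutation p = 0.0169), the chymase Cma1 by -0.78 (exact p = 0.0295) and the receptor Mrgprb1 by -0.76 (exact p = 0.0284). Fcer1a, the alpha chain of the IgE receptor, ranged from 5.32 to 6.42 in SD (median 5.71) and from 4.12 to 5.73 in HFD-DR (median 5.03), a difference of -0.73 (exact permutation p = 0.00855). The remaining members, named with their values already known, differed less: the IgE receptor beta chain Ms4a2 by -0.47, the tryptase Tpsab1 by -0.42, the histamine-forming enzyme Hdc by -0.32 and the stem cell factor receptor Kit by -0.27. HFD-DR replicate 7 had the lowest value for Cpa3 (7.12), Mcpt4 (6.98), Cma1 (6.80) and Fcer1a (4.12), and without it the list's median difference was -0.50.

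The promoters of 5 of the 6 mast cell markers that passed the unadjusted threshold are printed here. Each has 250 bases before and 50 after the transcription start, 300 in all, from RefSeq (GRCm38.p6). Of the 10 members, 8 matched a promoter entry, and Tpsb2 and Tpsab1 did not. Capitals mark GATAA, the core of the sites bound by GATA factors, or its complement TTATC, and CATGTG or CACGTG, the only forms of the E-box searched; each motif was searched on both strands. All 5 genes are on the minus strand, at chr3:20242132-20242431 (Cpa3), chr14:56062261-56062560 (Mcpt4), chr14:55944626-55944925 (Cma1), chr1:173227180-173227479 (Fcer1a) and chr7:48456293-48456592 (Mrgprb1).
Cpa3: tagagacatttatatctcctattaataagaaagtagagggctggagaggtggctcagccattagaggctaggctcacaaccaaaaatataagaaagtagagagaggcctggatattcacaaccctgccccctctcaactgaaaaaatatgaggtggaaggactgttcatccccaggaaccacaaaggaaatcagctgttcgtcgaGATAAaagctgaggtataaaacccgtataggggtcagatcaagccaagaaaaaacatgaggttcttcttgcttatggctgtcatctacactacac
Mcpt4: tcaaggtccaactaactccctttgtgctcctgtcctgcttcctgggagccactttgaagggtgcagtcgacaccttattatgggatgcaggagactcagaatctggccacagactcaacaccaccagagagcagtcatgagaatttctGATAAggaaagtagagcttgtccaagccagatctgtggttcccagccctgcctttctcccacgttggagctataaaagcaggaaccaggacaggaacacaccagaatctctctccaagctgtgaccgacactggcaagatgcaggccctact
Cma1: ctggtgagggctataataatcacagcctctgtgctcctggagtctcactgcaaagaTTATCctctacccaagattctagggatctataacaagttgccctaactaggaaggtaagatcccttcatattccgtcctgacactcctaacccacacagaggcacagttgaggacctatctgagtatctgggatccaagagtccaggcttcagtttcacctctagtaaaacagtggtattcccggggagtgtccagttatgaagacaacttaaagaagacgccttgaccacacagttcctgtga
Fcer1a: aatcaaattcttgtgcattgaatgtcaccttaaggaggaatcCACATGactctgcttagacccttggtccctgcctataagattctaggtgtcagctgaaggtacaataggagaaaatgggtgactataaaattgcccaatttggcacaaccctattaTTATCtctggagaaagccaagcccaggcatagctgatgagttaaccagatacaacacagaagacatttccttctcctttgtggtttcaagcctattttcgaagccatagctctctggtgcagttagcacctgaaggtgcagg
Mrgprb1: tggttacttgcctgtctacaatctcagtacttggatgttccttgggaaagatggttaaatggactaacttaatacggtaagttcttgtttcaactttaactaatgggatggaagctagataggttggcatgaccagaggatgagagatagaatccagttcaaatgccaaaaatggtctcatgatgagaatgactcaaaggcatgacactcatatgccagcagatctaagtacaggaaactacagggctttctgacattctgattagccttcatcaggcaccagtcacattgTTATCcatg
GATAA or its complement was present in 6 of the 8 promoters (75.0%) and in 25.4% of 32851 mouse promoters of the same length. CATGTG or CACGTG was present in 1 of the 8, that of Fcer1a, and in 20.4% of all. These matches describe the letters in the window and do not show that a factor binds there. The list was made of mast cell genes, and whether the matches bear on the difference between HFD-DR and SD was not tested.

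A difference by class of gene ran through the comparison, and the classes were chosen after the values were seen. TEC genes, an annotation class for transcripts awaiting experimental evidence, were higher in HFD-DR in 580 of 628 cases (92.4%) with a median difference of 0.34. Long noncoding genes were higher in 1190 of 1453 (81.9%) with a median of 0.18. Protein-coding genes were higher in 41.6% of 14829, with a median of -0.02. At an unadjusted p under 0.05, 126 TEC genes were higher and 0 lower, 184 long noncoding genes were higher and 7 lower, and 304 coding genes were higher and 244 lower. These are 20.1% of TEC, 12.7% of long noncoding and 2.05% of coding genes higher, beside 3.71% of all genes tested, and 0%, 0.482% and 1.65% lower, beside 1.43%.

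**Figure D4:**
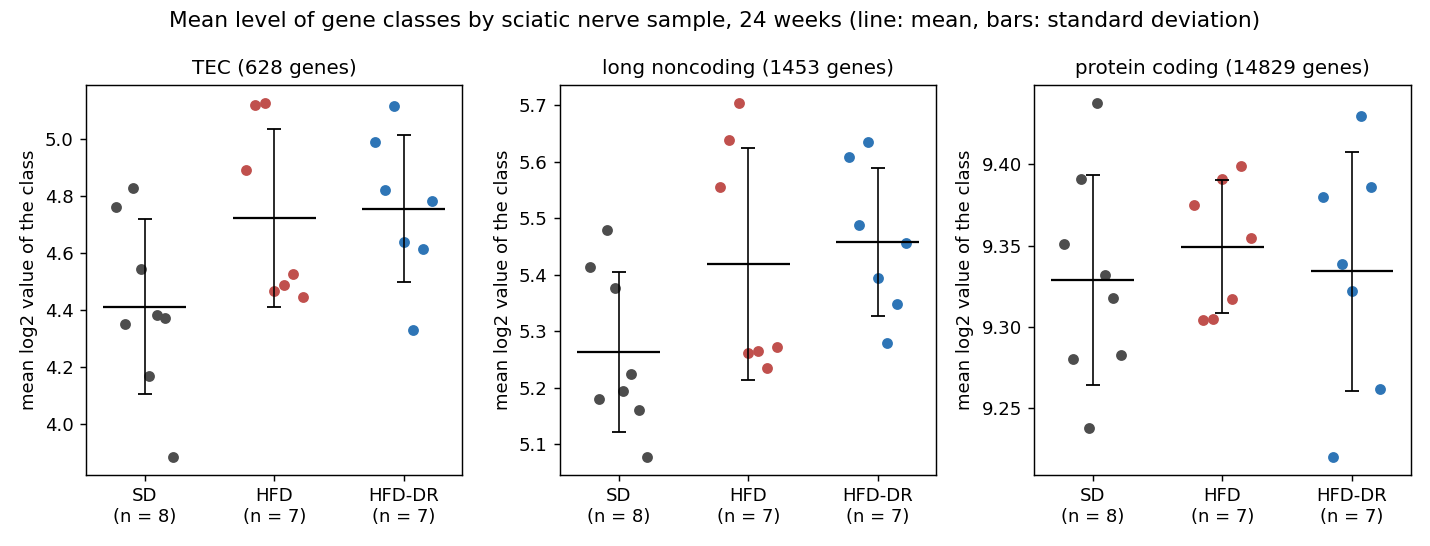
Mean log2 value over TEC, long noncoding and protein-coding genes in each SD, HFD-DR and HFD sample at 24 weeks, with each point a sample and the bars the mean and standard deviation of each group. TEC means run from 3.89 to 4.83 in SD and from 4.33 to 5.12 in HFD-DR.

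The plot of class means shows overlapping groups: the TEC mean had a median of 4.38 in SD and 4.78 in HFD-DR, and HFD samples ran from 4.45 to 5.13. In HFD against SD, the median TEC difference was 0.30, and in HFD against SD at 16 weeks, 0.22. The sample titles carry library numbers that fall in runs of consecutive numbers, and within the 7 runs that hold both groups, TEC genes were higher in HFD-DR in 7 of 7, by 0.09 to 0.47. Of the TEC genes tested, 384 (61.1%) lie on the same strand within a protein-coding gene, and 97.4% of these were higher, with a median of 0.42. Among the 94 that overlap a coding gene on the opposite strand 78.7% were higher, with a median of 0.23, and among the 150 that overlap none 88.0%, with a median of 0.25. Coding genes with a mean level under 6 were also mostly higher, 71.8% of 2340, with a median of 0.15. Pseudogenes, with a median level of 4.74 beside 4.36 for TEC genes, were not: 45.6% of 669 were higher, with a median of -0.02.

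Several of the noncoding genes named above belong to these classes and lie in a host gene, where reads on the same strand cannot be assigned to either: Gm37311 in Mir99ahg, Gm38380 in Ncoa2, 6030400A10Rik in Cpeb2, Gm37124 in Gm4258 and Gm28373 in Itpk1. When the mean level of TEC genes was added to the fit, the count of genes at an unadjusted p under 0.05 went from 934 to 274 (127 higher, 147 lower), and that of mast cell markers from 6 to 2, while the mast cell median difference was -0.68 with that term and 0 of the 10 were higher. Whether RNA quality or the library step had a part in the class difference was not tested.

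By the median over their members, several immune and fat cell lists lay a little lower after reversal than in SD. In HFD nerves these medians lay higher than in SD. Of 14 adipocyte markers 0 were higher in HFD-DR, with a median difference of -0.43 beside 0.65 in HFD, and of 15 resident macrophage markers 0 were higher, with a median of -0.26 beside 0.18. Mean levels over the resident macrophage list ran from 9.62 to 10.17 in HFD-DR, within the SD range of 9.60 to 10.7. In both lists 0 members had an unadjusted p under 0.05 by limma. The macrophage marker Adgre1 differed by -0.26 and Cd68 by -0.28, neither past the test. Lipid-associated macrophage genes, a set switched on in macrophages that take up lipid, had a median of -0.07 (5 of 15 higher) beside 0.55 in HFD. The mean level over that list went the other way, with a median sample at 10.28 in HFD-DR and 10.15 in SD. Complement genes had a median of -0.22 (2 of 19 higher) beside 0.11, and acute phase genes -0.25 (4 of 10) beside 0.81. Chemokines and their receptors had -0.17 (5 of 24), beside 0.08 in HFD, where 13 of the 24 were higher. The acute phase median held for the 10 members that passed the filter, and over all 15 it was 0.01 (8 higher).

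Other immune lists were also measured. MHC class II genes had a median of -0.11 (1 of 9 higher) beside 0.26 in HFD, interferon-stimulated genes -0.02 (10 of 20), and T cell, B cell and plasma cell markers 0.01 (6 of 10) beside 0.57. Skeletal muscle markers were higher in HFD-DR, 11 of 11 tested, by a median of 1.14 beside -1.71 in HFD. Mean levels over that list ran from 6.73 to 16.12 in SD and from 8.74 to 15.31 in HFD-DR. Haemoglobin genes had a median of 0.12 (7 of 8 higher). Ucp1, the heat-producing protein of brown fat, was picked out with its values already known. It stood at 12.66 in SD replicate 2 and at 9.15 and 10.38 in HFD-DR replicates 2 and 4, with the other SD and HFD-DR samples between 2.21 and 5.17. Of 10 thermogenic genes tested, 8 were higher in HFD-DR, with a median of 0.13.

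**Figure D5:**
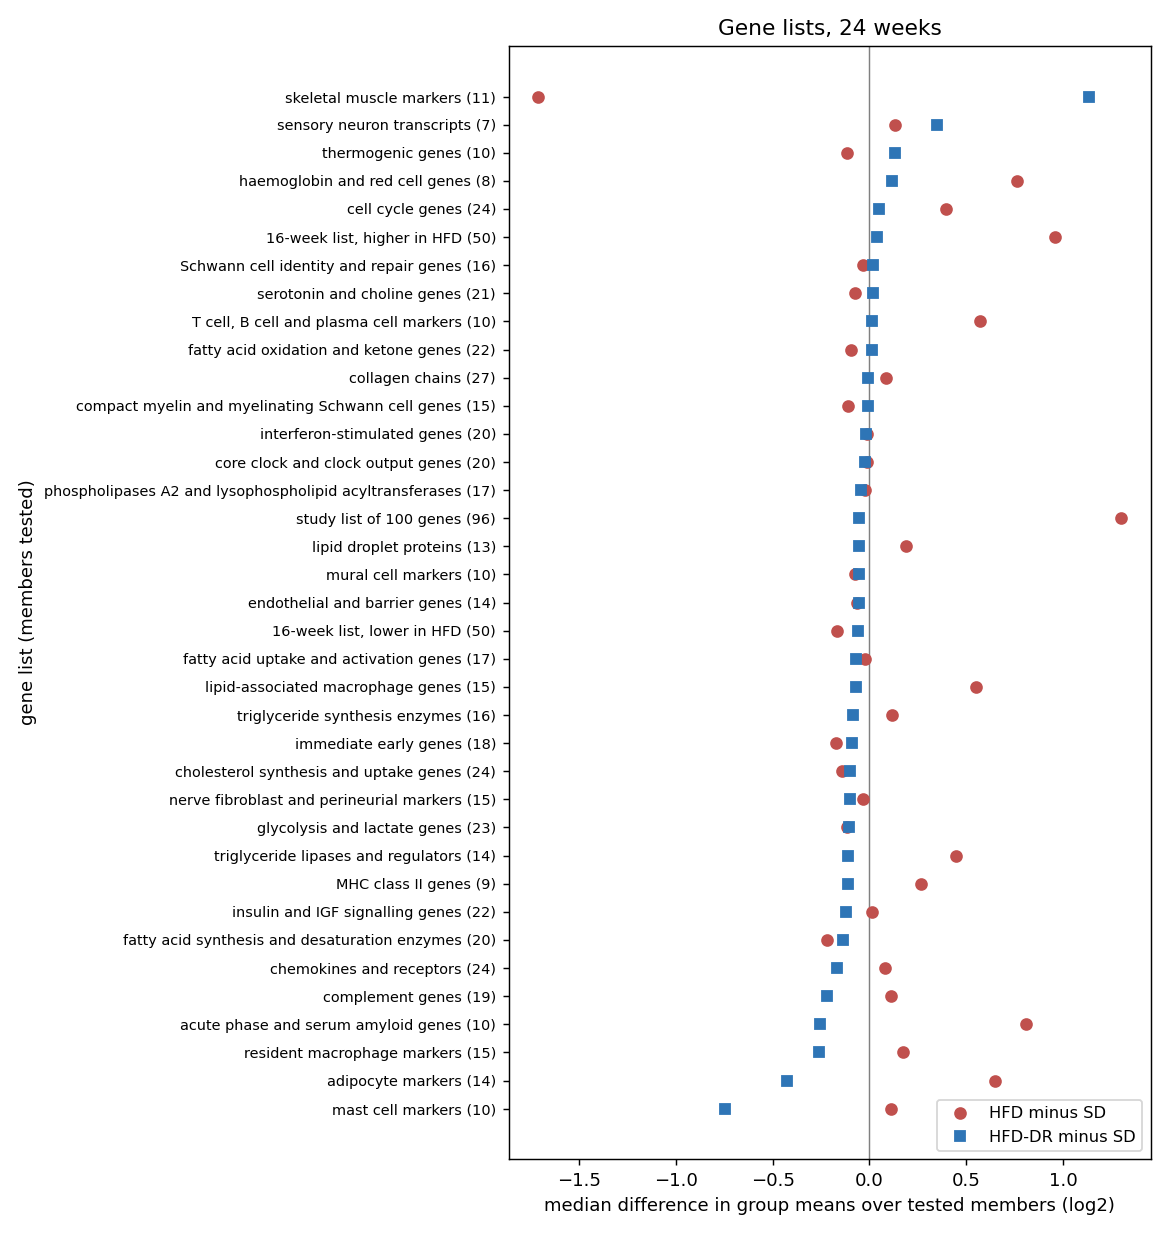
Median log2 difference over each gene list for HFD-DR minus SD and HFD minus SD at 24 weeks, which share the 8 SD samples. Mast cell markers have the lowest HFD-DR median, -0.75, and skeletal muscle markers the highest, 1.14.

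The plot of list medians places the lipid genes near 0. Triglyceride lipases and their regulators had a median of -0.11 (3 of 14 higher) beside 0.44 in HFD, triglyceride synthesis enzymes -0.08 (4 of 16) beside 0.11, and lipid droplet proteins -0.05 (4 of 13) beside 0.19. Dgat2, which makes the last step of triglyceride synthesis, ranged from 11.10 to 13.29 in SD (median 12.33) and from 11.07 to 13.10 in HFD-DR (median 12.30), a difference of -0.21 beside 1.11 in HFD. Lpgat1, an acyltransferase, differed by -0.04 beside 1.20, and the fatty acid carrier Cd36 by -0.21 beside 1.02. The secreted phospholipase Pla2g2e differed by 0.34 beside 1.70, and the gastric lipase Lipf by 0.44 beside 2.83, neither past the test.

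The remaining lipid lists were as close to SD. Fatty acid synthesis and desaturation enzymes had a median of -0.13 (5 of 20 higher), fatty acid oxidation and ketone genes 0.01 (13 of 22), and fatty acid uptake and activation genes -0.07 (5 of 17), with Acsm3 the member under the unadjusted threshold. Cholesterol genes had a median of -0.10 (5 of 24), with Nsdhl, a sterol synthesis enzyme, at -0.18. Phospholipases A2 and lysophospholipid acyltransferases had a median of -0.04 (5 of 17), with Lpcat3 at -0.25 (exact permutation p = 0.0235). A list of 100 genes that the authors chose on these same samples, and that is therefore not independent evidence, had 42 of 96 tested members higher in HFD-DR, a median of -0.05 beside 1.30 in HFD.

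Schwann cell lists were close to SD, and the tested sensory neuron transcripts lay higher in HFD-DR, none past the test. Myelin and myelinating Schwann cell genes had a median of -0.01 (6 of 15 higher) and Schwann cell identity and repair genes 0.02 (11 of 16), with Runx2, a transcription factor induced in injured nerve, at 0.36 (exact permutation p = 0.0480). Sensory neuron transcripts, which reach the nerve in axons, had a median of 0.35 over 7 tested members (6 higher). Nefh, the heavy neurofilament chain of large axons, differed by 0.46 (SD 8.46 to 9.56, median 8.96; HFD-DR 8.86 to 10.24, median 9.26; exact permutation p = 0.0609). The other 8 members of that list were dropped for a value above 22 in a sample outside this comparison, HFD-STZ24wk replicate 7, and over all 15 members the median was 0.07 (12 higher). Across the 15 samples Calca had the narrowest range of those 8, from 9.21 to 9.35, and Nefm the widest, from 9.33 to 9.95. Why these ranges were narrow was not tested, and the differences near 0 of those 8 are not read as no difference. That sample accounted for 23 of the 25 genes so dropped, and HFD24wk replicate 1 for 2.

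Vessel, matrix and metabolic lists completed the set. Endothelial and barrier genes had a median of -0.06 (3 of 14 higher), with Emcn, a sialomucin of capillary and venous endothelium, at -0.28 (exact permutation p = 0.0629). Mural cell markers had -0.05 (3 of 10), nerve fibroblast and perineurial markers -0.10 (2 of 15) and collagen chains -0.01 (13 of 27). Glycolysis genes had -0.10 (5 of 23) and insulin and IGF signalling genes -0.12 (7 of 22), with the kinase Akt1 at -0.12 (exact permutation p = 0.0183). Clock genes had -0.02 (9 of 20), with Per3 at 0.31 (exact permutation p = 0.0642), immediate early genes -0.09 (4 of 18), with Jund at -0.21 (exact permutation p = 0.0371), and cell cycle genes 0.05 (13 of 24). Serotonin and choline genes had 0.02 (11 of 21), with Slc5a7 higher as given above, Tph1, the tryptophan hydroxylase outside the brain, at -0.62 (exact permutation p = 0.0186) and the serotonin transporter Slc6a4 at -0.56 (exact permutation p = 0.0129). None of these members passed the test across all genes.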

How the data were processed

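Values were used as deposited: the authors aligned reads to mm10 with HISAT2, counted them with featureCounts and normalised them with DESeq2, and deposited values that fit a log2 scale, whose transformation is not named and whose software versions are not given in the sources used here. No counts were available. Genes with any value above 22 were dropped, and genes with a mean log2 value of 3.32 or more over the samples compared were tested with limma 3.58.1 in R 4.3.3, with p-values adjusted by Benjamini and Hochberg over all genes tested (threshold 0.05). Unadjusted p-values are from the same fit, and exact permutation tests were 2-sided. Python 3.11.15 with numpy 2.4.6, pandas 2.3.3 and matplotlib 3.10.9 gave the other values, and gene classes and positions came from GENCODE M21.

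The named genes were the 10 with the smallest p in each direction, the genes past an adjusted p of 0.05 in HFD against SD, genes the study named, the 16-week genes with the smallest p, cell type markers, and from each list the member with the smallest p, the most abundant member and members under an unadjusted p of 0.05. Members and lists were chosen with earlier results of these data known. The fits with marker levels or TEC levels as terms, the fits without 3 nerves or on coding genes alone, and the summaries of mast cell markers and gene classes were added after seeing the data. The code was tested on simulated data. Runs of consecutive library numbers, which the labels do not explain, were fitted as a replicate block among the alternatives. The labels and the paper name different library kits. Some named genes are not reported here.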

Additional observations from a re-analysis of the deposited data

Results flagged for a closer look

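In 20 of the 296 groups of SD and HFD-DR values examined (6.76%), the highest or lowest sample stood apart, its gap to the nearest sample being a large share of the group's range. Chance gives about 1 in 20 groups. All values are log2 levels.

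Among HFD-DR samples, replicate 1 was lowest for the chemokine gene Ccl11 (12.23), the interferon-stimulated gene Ifit2 (11.6) and the proteoglycan gene Lum (13.94), and highest for Clec4d (5.06). Replicate 3 was highest for Itgad (7.882). Replicate 4 was lowest for 6030408B16Rik (7.755) and highest for the haemoglobin gene Hba-a1 (12.82). Replicate 5 was highest for Lpcat3 (10.9) and Rps6ka2 (12.17). Replicate 6 was lowest for Gm15475 (3.311), and replicate 7 was lowest for the mast cell gene Cma1 (6.803).

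Among SD samples, replicate 2 was highest for Ucp1 (12.66). Replicate 4 was lowest for the adrenergic receptor gene Adrb3 (6.182), the fat cell gene Fabp4 (11.78) and the heat receptor gene Trpv1 (5.536). Replicate 5 was highest for the glycolysis genes Aldoa (18.32) and Bpgm (11.47), for Tm4sf19 (3.319) and for Vsig8 (3.705). Replicate 6 was lowest for the haemoglobin gene Hbb-bs (8.301).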

How the results depend on the processing

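HFD-DR against SD gave 0 genes past an adjusted p of 0.05 under every alternative run with limma, with smallest adjusted p-values from 0.108 to 1.00, and from 0.051 to 1.00 when each sample was left out in turn. The count at an unadjusted p under 0.05 (934) was 2663 with no filter on low values (2348 higher, 315 lower). It was 548 among the 14829 protein-coding genes, counted from the same fit. It was 536 without the 3 nerves with Ucp1 above 9, and 274 with the mean level of TEC genes as a term. Leaving out single samples gave 517 (without HFD-DR replicate 3) to 1499 (without HFD-DR replicate 5). Centring each sample on its median gave 792 (655 higher, 137 lower), adipocyte and muscle marker levels as terms gave 1221 (684 higher, 537 lower), and runs of library numbers as a block gave 986. The cause of the changes in this count was not tested.

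HFD against SD (22 genes) gave 68 with all 8 groups in 1 fit and 13 with the runs as a block. Leaving out single samples gave 13 (without HFD replicate 1 or 4, or SD replicate 7) to 44 (without HFD replicate 2 or 3), with 14 without HFD replicate 7 or SD replicate 8. HFD-DR against HFD (2 genes) gave 0 with no filter, 18 with all 8 groups and 0 with the block, and 0 (8 of the 14 samples) to 10 (without HFD replicate 2) when single samples were left out. HFD against SD at 16 weeks (1 gene) gave 7 with all 8 groups and 0 with the block, and from 1 to 4 (without HFD replicate 6) when single samples were left out. The cause of these changes was not tested.

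The median HFD-DR minus SD difference stayed between -0.06 and 0.20 for the 50 genes higher at 16 weeks and between -0.08 and -0.03 for the 50 lower when single samples were left out. Mast cell markers had a median of -0.87 to -0.50 and TEC genes 0.27 to 0.43 under the same procedure, and the TEC median was 0.00 with the TEC mean as a term. Of 143 named genes tested, 39 had an unadjusted p under 0.05, many of them named for that p, against 934 of 18151 over all genes. None of the 39 changed sign under any alternative, and 20 kept an unadjusted p under 0.05 in every alternative that tested them, which was 25 or 26 alternatives. Of the other named genes, 54 changed sign under at least 1 alternative. The files give no counts per sample, so what depth limits could not be measured from them.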
